A study of Danio rerio with 2 samples.

Results

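The genes described here are 10 zebrafish genes of polyamine synthesis and its control, out of 32105 genes in the deposited table. They are *odc1*, *amd1*, *srm* and *sms* of the synthesis pathway, the ornithine decarboxylase antizyme genes *oaz1a*, *oaz1b*, *oaz2a* and *oaz2b*, and the antizyme inhibitor genes *azin1a* and *azin1b*. All 10 were found by their names, and the set was chosen by pathway with the low read count of *oaz1b* in the mutant library already known, so that value is a description and not a test. The RNA came from zebrafish embryos at 22 hours post fertilization (hpf), from cells sorted as positive for gata1-EGFP, a green fluorescent reporter named after the erythroid transcription factor gene *gata1*. The labels name the cells erythroblasts and give 2 genotypes with 1 library each. These were an *add1* knockout, here the mutant, and wild type, which the series text names siblings of the mutants. Neither the *add1* allele nor the number of embryos pooled nor the strain is stated in the labels.

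Polyamines are small positively charged molecules that bind RNA and are made in large amounts by dividing cells. Ornithine decarboxylase, the product of *odc1*, makes putrescine from ornithine, and spermidine synthase (*srm*) and spermine synthase (*sms*) extend it with aminopropyl groups from S-adenosylmethionine that *amd1* has decarboxylated. Antizyme binds ornithine decarboxylase and delivers it to the proteasome, and its own translation needs a ribosomal frameshift that polyamines promote. Antizyme inhibitor, an inactive relative of the decarboxylase, binds antizyme and sets the enzyme free.

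The mutant library held 5956344 counts and the sibling library 6157792. Levels are given as CPM, counts per 1000000 reads after scaling by library total and a TMM factor (trimmed mean of M values), and as the deposited FPKM, which also divides by gene length, wherever genes are compared with each other. A log2 ratio divides CPM + 1 of the mutant by that of the sibling library. Genes with at least 10 CPM in 1 library or both are called measured, and 9625 were. With 1 library per genotype there is no test and no spread between samples. The bracketed 95% intervals cover counting error only, and reads multiplied by PCR were not told apart. *add1* itself, which encodes an adducin of the membrane skeleton, had 18 counts in the mutant against 1166 in the sibling library (2.82 and 203 CPM). All 12 erythroid markers, among them *gata1a* (582 against 892 CPM), were detected in both libraries and were lower in the mutant library with TMM (11 of 12 with library totals, where *lmo2* was at 0.10), with 32243 against 75812 CPM in sum. Of all measured genes, 55.6% were lower with TMM and 40.2% with library totals. At least 2-fold higher were 7.12% of them and at least 2-fold lower 4.37%, the shares to set beside the marker counts that follow. Of the 12 erythroid markers, 6 were at least 2-fold lower with TMM and 0 at least 2-fold higher. Among these 6, *alas2* had a log2 ratio of -1.02, which became -0.83 with library totals. Markers of hatching gland and notochord summed to 3332 CPM (mutant) against 396 CPM (sibling). Of these 7 of 8 measured genes were at least 2-fold higher, and none of the 11 rows was at 0 in either library. Those of skeletal muscle summed to 11405 and 4231 CPM, with 7 of 14 measured genes at least 2-fold higher and none of 16 at 0. Of the 14 muscle genes, 3 were lower in the mutant library with TMM and 2 with library totals, none of them by 2-fold. Neural markers summed to 270 and 100 CPM, with 3 of 5 measured genes at least 2-fold higher, and *sox11a* at 0 in both libraries and *sox11b* at 0 in the sibling library. Epidermal markers summed to 2739 and 1944 CPM, with 3 of 8 at least 2-fold higher. Among the genes counted as higher, 3 of hatching gland and notochord, 1 of muscle, 2 neural and 1 epidermal were measured through the mutant library alone. Among the myeloid genes that follow, 1 of the lower ones was measured through the sibling library alone. The minimum bears on the direction of these genes. Myeloid markers summed to 1020 and 1297 CPM, with 5 of 10 at least 2-fold lower and 1 higher, and endothelial markers to 172 and 148 CPM with 0 of 4 measured genes past 2-fold. The part of these cells in the values below was not tested, and in bulk RNA fewer cells of a type and less RNA per cell cannot be told apart.

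In the sibling library the antizyme and decarboxylase transcripts were among the most abundant. *oaz1a* stood at 423 FPKM (411 to 435), *odc1* at 314 (305 to 323) and *oaz1b* at 223 (217 to 229), which are ranks 103, 152 and 244 of all genes by FPKM. The intervals of these 3 genes did not overlap. *azin1b* followed at 71.8 FPKM (68.1 to 75.7), then *srm* at 34.8 (32.1 to 37.6) and *sms* at 27.5 (25.2 to 30.1). Lowest were *oaz2a* at 5.65 FPKM (4.92 to 6.47), *amd1* at 3.97 (3.35 to 4.67), *azin1a* at 1.54 (1.15 to 2.03) and *oaz2b*, which had 0 counts. The order was therefore clear of counting error between all neighbours in the sibling library. In the mutant library *oaz1a* stood at 435 FPKM (423 to 447), *odc1* at 219 (212 to 227), *azin1b* at 56.8 (53.4 to 60.3), *srm* at 32.9 (30.2 to 35.6) and *sms* at 24.5 (22.2 to 26.9). The order of these 5 genes was the one of the sibling library. Below them *oaz2a* at 5.57 FPKM (4.83 to 6.39), *oaz1b* at 4.21 (3.39 to 5.16) and *amd1* at 3.97 (3.34 to 4.68) had overlapping intervals. *oaz1b* thus ranked 8641 of all genes and could not be told apart from *oaz2a* and *amd1*. *azin1a* was at 2.13 FPKM (1.65 to 2.70) and *oaz2b*, with 5 counts, at 0.430.

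**Figure D1:**
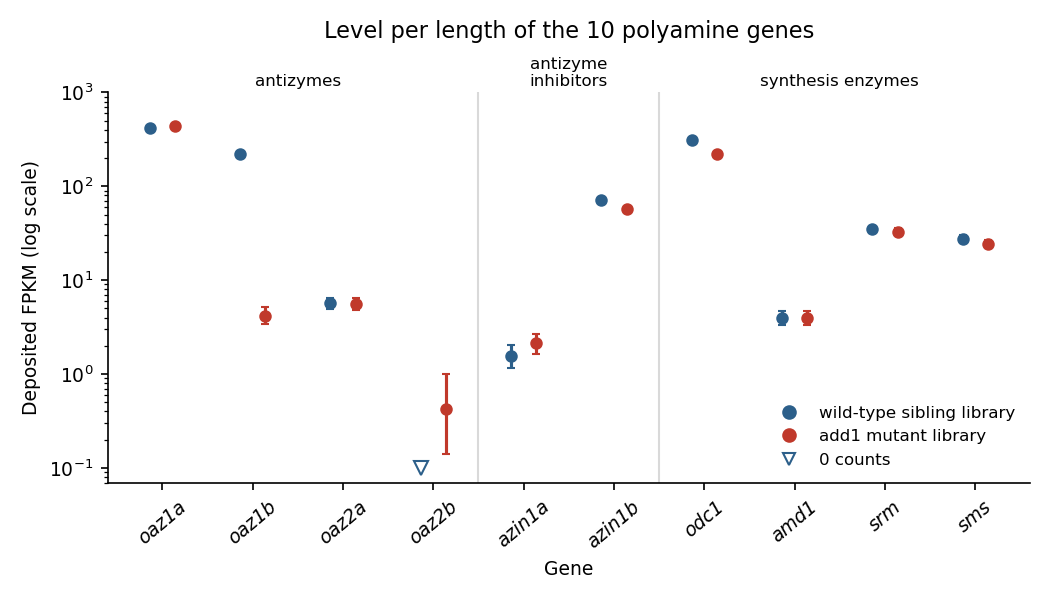
Deposited FPKM (log axis) of the 10 polyamine genes in the sibling library (blue) and the mutant library (red), grouped by role. Bars are 95% counting intervals and the open triangle marks 0 counts. *oaz1b* falls from 223 to 4.21 FPKM, while each other measured gene keeps its order of magnitude.

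Among the antizyme genes, *oaz1b* (ENSDARG00000104782, chromosome 21, 698907 to 710496 in GRCz10) had 92 mutant and 5046 sibling counts, or 14.4 and 877 CPM. This is 1.65% (1.32 to 2.02) of the sibling level. By CPM alone *zer1* (0.499%, 1 count) and *add1* (1.39%), among others, kept less of theirs. On the scale of CPM + 1 the log2 ratio of *oaz1b*, -5.83, was the lowest of the 9625 measured genes. Its closest paralog *oaz1a* (ENSDARG00000071403, chromosome 22, 20689646 to 20695449) had nearly the same number of reads in both libraries, 4958 in the mutant and 4980 in the sibling. *oaz1a* was at 778 against 865 CPM, a log2 ratio of -0.15 that became 0.04 when library totals alone set the scale, so its direction depended on the scaling. The median of all measured genes moved in the same way, from -0.07 to 0.12, and relative to it *oaz1a* was at -0.08 on either scale. A higher level of the paralog beside the low *oaz1b* was not detected. The highest fold inside the counting interval, mutant over sibling, was 1.07 with library totals and 0.935 with TMM.

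The second antizyme pair was minor. *oaz2a* (ENSDARG00000045929, chromosome 25) had 203 mutant and 213 sibling counts, 31.9 and 37.0 CPM, and the interval of its fold, 0.861 (0.707 to 1.05), held 1. *oaz2b* (ENSDARG00000059815, chromosome 7) had 5 and 0 counts and was not measured, where a count of 0 allows up to 0.521 CPM in the sibling library. How the counting divided reads between paralogs is not stated, and where the 92 reads given to *oaz1b* in the mutant library came from was not tested.

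Summed over the 4 antizyme genes, the libraries had 5258 (mutant) and 10239 (sibling) counts, or 825 against 1779 CPM. The sum was 2.16-fold lower in the mutant library (2.09 to 2.23), and without *oaz1b* 1.11-fold lower (1.07 to 1.16) with TMM. With library totals that fold without *oaz1b*, sibling over mutant, was 0.972 (0.935 to 1.01) and its interval held 1. By FPKM the sum without *oaz1b* was 441 (mutant) against 428 (sibling), so its direction depended on the scaling. *oaz1b* made up 49.3% (48.3 to 50.3, exact binomial interval) of antizyme reads in the sibling library and 1.75% (1.41 to 2.14) in the mutant library, where *oaz1a* held 94.3% (93.6 to 94.9). Per length the difference was smaller, since the lengths behind the deposited FPKM were 3.67 kb for *oaz1b* and 1.91 kb for *oaz1a*. The summed antizyme FPKM was 445 against 652, 1.46-fold lower (1.41 to 1.51), with *oaz1b* at 34.2% of the sibling sum and 0.944% of the mutant sum. Whether those lengths match the transcripts present was not tested.

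Of the synthesis genes, *odc1* (ENSDARG00000007377, chromosome 17, 51654873 to 51668516), the target of antizyme, had 3433 mutant and 5080 sibling counts. At 539 against 883 CPM it was 1.64-fold lower in the mutant (1.57 to 1.71), and 10.3% of the measured genes had a lower ratio. Its log2 ratio was -0.71, and -0.52 with library totals, and stood at -0.64 relative to the median of all measured genes on either scale. *odc1* thus kept its direction under all 7 alternative scalings and pseudocounts and passed 2-fold in 0 of them.

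The other 3 synthesis genes were lower by less. *sms* (ENSDARG00000008155, chromosome 21) was at 67.8 against 87.2 CPM (432 and 502 counts), 1.29-fold lower (1.13 to 1.47). *srm* (ENSDARG00000055760, chromosome 23) was at 90.8 against 110 CPM (579 and 634 counts), 1.21-fold lower (1.08 to 1.36). *amd1* (ENSDARG00000043856, chromosome 20), whose product supplies the aminopropyl donor, was at 22.0 against 25.2 CPM (140 and 145 counts), and its interval, 0.872 (0.686 to 1.11), held 1. With library totals the intervals of *srm*, *sms* and *amd1* all held 1. The FPKM ratio of *odc1* to *srm* was 6.67 (6.11 to 7.29) for the mutant and 9.02 (8.30 to 9.79) for the sibling library, and that of *srm* to *sms* 1.34 (1.18 to 1.52) and 1.26 (1.12 to 1.42). Within these 2 libraries *odc1* was therefore lower relative to the enzymes after it in the pathway, while the balance of the 2 aminopropyltransferase genes did not differ beyond counting error. Ratios of genes within a library do not depend on the scaling.

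Of the antizyme inhibitor genes, *azin1b* (ENSDARG00000035869, chromosome 19) was at 164 against 238 CPM (1047 and 1369 counts), 1.45-fold lower in the mutant library (1.34 to 1.57). *azin1a* (ENSDARG00000052789, chromosome 16) was at 10.7 against 8.86 CPM (68 and 51 counts) and passed the minimum of 10 CPM only through the mutant library. Its fold of 1.20 (0.825 to 1.77) held 1. Since *azin1b* was 46.5 times (35.2 to 61.5) as abundant as *azin1a* per length in the sibling and 26.7 times (20.9 to 34.1) in the mutant library, the inhibitor sum followed *azin1b*, at 58.9 (mutant) against 73.4 (sibling) FPKM.

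Of the 10 genes, 9 were measured. By the 2-fold rule on the log2 ratio, 1 (*oaz1b*) was lower, where 4.37% of all measured genes were, and 0 were higher, where 7.12% were. At 1.5-fold, 2 genes (*oaz1b* and *odc1*) were lower against 14.9% of all measured genes, and 0 higher against 14.9%. Since *oaz1b* was in view when the set was chosen, nothing is read from either count of lower genes, which both hold it. Apart from *oaz1b* the measured genes lay between log2 ratios of -0.71 and 0.24, inside the range from -0.96 to 1.19 between the 5th and 95th percentiles of measured genes.

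The balance of antizyme to its target can be read per length. The summed antizyme FPKM was 2.03 times that of *odc1* in the mutant library (1.95 to 2.12) and 2.08 times in the sibling library (2.01 to 2.15). The quotient of these values was 0.978 (0.926 to 1.03), so on this scale the balance did not differ beyond counting error. The value rests on the lengths: from scaled counts the same quotient was 0.760, with antizyme lower relative to *odc1* in the mutant library. *oaz1a* alone was 1.98 times *odc1* (1.90 to 2.07) in the mutant and 1.35 times (1.30 to 1.40) in the sibling library, 1.47 times as high (1.39 to 1.56), and this quotient of 1 gene pair does not depend on length. Antizyme inhibitor was 0.132 of summed antizyme per length (0.124 to 0.141) for the mutant and 0.113 (0.106 to 0.119) for the sibling library. These values too rest on the lengths. By CPM the inhibitor sum was 175 (mutant) against 247 (sibling) and the antizyme sum 825 against 1779. All the ratios here are of transcripts, and antizyme protein was not measured.

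**Figure D2:**
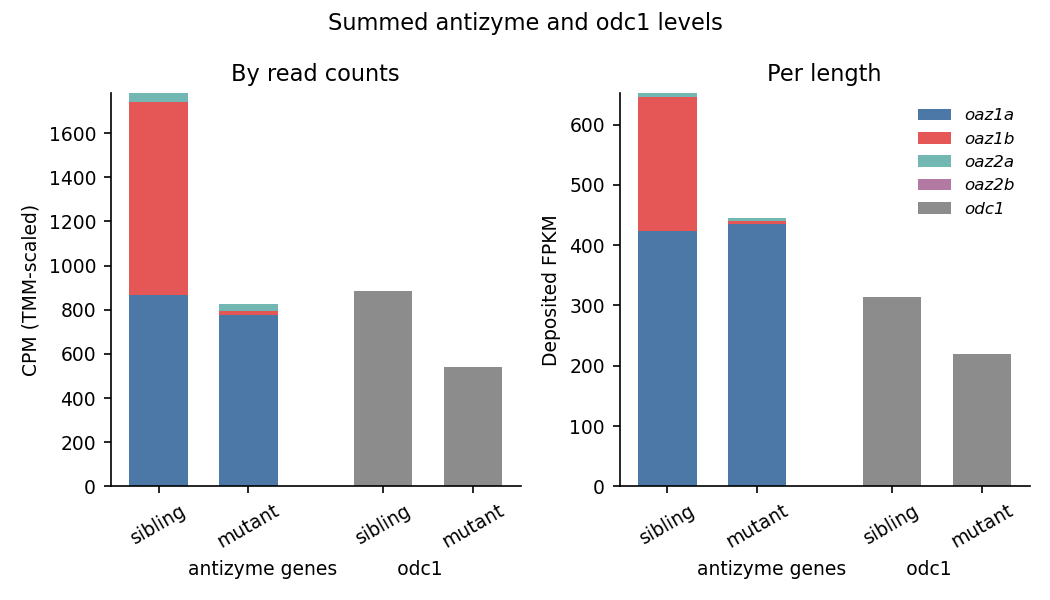
Summed level of the 4 antizyme genes, stacked by gene, and the level of *odc1* in each library, as CPM (left, axis from 0) and as deposited FPKM (right, axis from 0). The *oaz1b* segment is barely visible in the mutant bar, and the sum drops from 1779 to 825 CPM but only from 652 to 445 FPKM, and *odc1* is lower in the mutant library on both scales.

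On its chromosome *oaz1b* lies 1254 kb before the start of *add1*, on chromosome 21. The 12 measured genes from the chromosome start through *add1*, *oaz1b* included, were all far lower in the mutant library. Of them *oaz1b* had the highest CPM in the sibling library and 36.0% of the sibling reads, neither corrected for gene length. Each of the other 11 was below 10 CPM in the mutant library and measured through the sibling library alone, so the minimum bears on their direction. The 11 genes other than *oaz1b* kept 1.85% (1.59 to 2.14) of their sibling level, with 184 mutant against 8987 sibling counts. The 1.65% of *oaz1b* and the 1.39% of *add1* (0.823 to 2.21) had intervals that overlapped with it, so the antizyme gene stood no further from the sibling level than its surroundings did. Single genes kept from 0.499% (*zer1*, 1 count) to 7.97% (*zgc:152948*, 9 counts). The measured genes beside *oaz1b* were *rad23b*, which encodes a carrier of ubiquitinated proteins to the proteasome, at 0.314 against 10.4 CPM (2 counts in the mutant library), and *nars*, an asparaginyl-tRNA synthetase gene, at 2.98 against 173 CPM. Whether *oaz1b* was low through the loss of *add1* or through a difference that covers the whole stretch cannot be told apart with these libraries. *sms*, the other polyamine gene of chromosome 21, lies near 25 Mb, outside the stretch, where its 10 nearest measured genes had a median log2 ratio of 0.00. On chromosome 21 beyond *add1* the median of 344 measured genes was -0.11. Of them 16 were at least 2-fold lower, where 4.37% of all measured genes were.

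**Figure D3:**
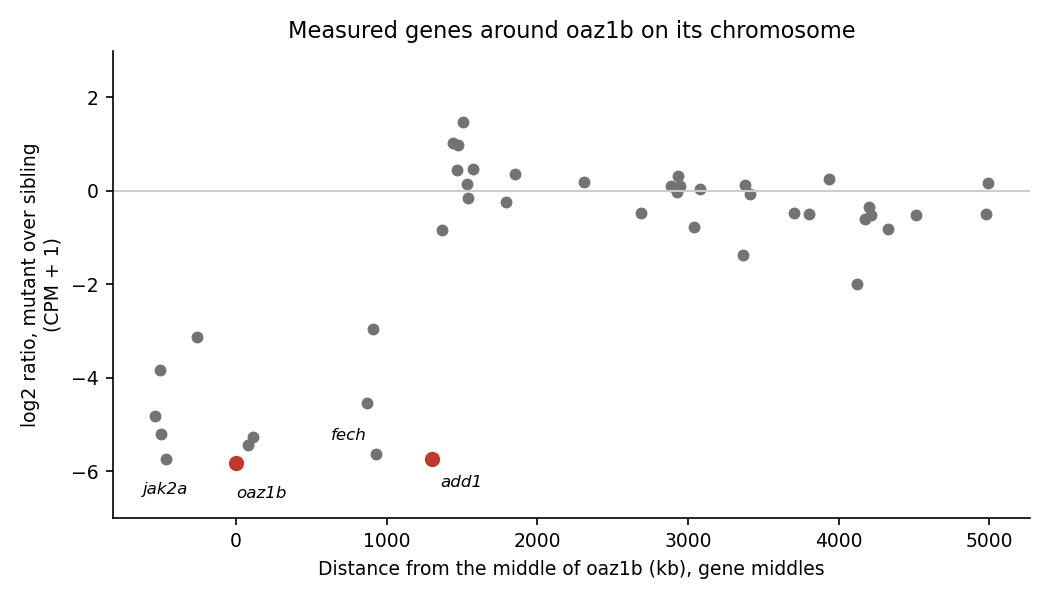
Log2 ratio of CPM + 1 (mutant over sibling) of each measured gene on the same chromosome up to 5000 kb past *oaz1b* against its distance from the middle of *oaz1b* in kb, with *oaz1b* and *add1* in red. All 12 genes up to *add1* lie at or below -2.96, and the plotted genes beyond lie between -2.00 and 1.48.

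Around the other polyamine genes few neighbours were past 2-fold. The 10 measured genes nearest *oaz1a* had a median log2 ratio of -0.14, beside -0.15 for *oaz1a*, and those nearest *oaz2a* one of -0.31, beside -0.21. *odc1*, at -0.71, was below 9 of its 10 nearest measured genes, which had a median of -0.09 and ranged from -0.74 to 3.802. *azin1b*, at -0.53, had neighbours with a median of -0.14, and *srm*, at -0.28, neighbours with a median of -0.00. For *amd1* the neighbours had a median of 0.27 and for *azin1a* one of -0.15. For *oaz1b* the same median was -5.01, with all 10 neighbours at least 2-fold lower. These neighbours were measured through the sibling library alone, and with no minimum the median of the nearest 10 was -2.08. Apart from *oaz1b*, at least 2-fold lower were 1 of 10 for *oaz1a* and 0 of 10 for each other measured polyamine gene. At least 2-fold higher were 1 of 10 for each of *odc1*, *amd1*, *azin1a* and *azin1b*, and 0 of 10 for each other measured one.

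**Figure D4:**
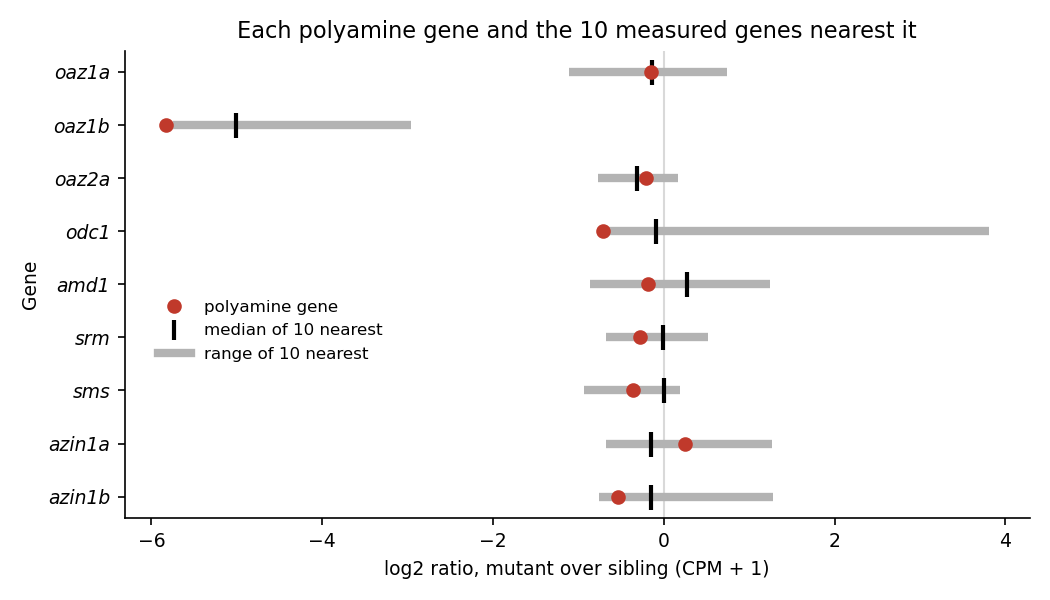
Log2 ratio of CPM + 1 (mutant over sibling) of each measured polyamine gene (red point) with the median (black tick) and range (grey bar) of the 10 measured genes nearest it on its chromosome. *oaz1b* at -5.83 sits with its neighbours at a median of -5.01, and *odc1* at -0.71 sits near the low end of its own.

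Over these 2 libraries, the gene nearest *oaz1b* in log2 ratio, among 627 named genes with a mean CPM within 2-fold of it, was *jak2a* of the same stretch at -5.75. The next 4, *ampd2a*, *hif1al2*, *mcm5* and *nt5c2l1*, were at -2.68 to -1.68, far from it. For *odc1*, among 319 such genes, the 5 nearest were *rpl8*, *prdx3*, *rpl4*, *impdh2* and *abcb10*, at -0.72 to -0.70. With 1 ratio per gene this is a likeness in 1 number only.

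Genes of 6 connected pathways were described from fixed lists, of which 55 of 57 symbols were found and 41 genes were measured. By the 2-fold rule 3 were higher (7.32%) and 1 was lower (2.44%), against 7.12% and 4.37% of all measured genes, so the shares were near the background or below it. The 3 higher genes, *smox*, *slc7a1* and *myca*, all passed the minimum of 10 CPM through the mutant library alone. The median log2 ratio of the 41 genes was 0.27, beside -0.07 for all measured genes. More of the 41 were measured through the mutant library alone than through the sibling library alone, so the minimum bears on this median. How many genes of a list were higher or lower at all is set beside all measured genes, of which 44.4% were higher and 55.6% lower with TMM, but 59.8% higher and 40.2% lower with library totals.

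In polyamine catabolism, 6 of 9 genes found were measured, each with a higher level in the mutant library. Of these, *smox*, *aoc2* and *paox1* passed the minimum through the mutant library alone, so the minimum bears on their direction, and *PAOX*, at 1.26 against 3.30 CPM (8 and 19 counts), lay the other way below it. *smox*, which encodes spermine oxidase, the enzyme that turns spermine back into spermidine, had 245 mutant and 44 sibling counts. It was at 38.4 against 7.65 CPM, 5.03-fold higher (3.64 to 7.10). *aoc2*, an amine oxidase gene, was at 20.7 against 9.90 CPM, 2.09-fold higher (1.52 to 2.91) by CPM but at 0.99 on the log2 scale of CPM + 1, just under the 2-fold rule. Spermidine/spermine acetyltransferase, which starts polyamine breakdown and export, was less different: *sat1b* was at 52.2 against 40.7 CPM (1.28-fold higher, 1.08 to 1.53) and *sat1a.1* at 18.4 against 14.9 CPM (1.23-fold, 0.922 to 1.64). The row of this family with the highest CPM, *SAT1 (1 of many)* on chromosome 5, was named after its values were seen. It was at 115 CPM in both libraries, and its span overlaps that of *sat1a.1*, so reads shared between them are uncertain. *paox1*, a polyamine oxidase gene listed as *si:dkey-7o6.3*, was at 12.4 against 9.04 CPM, and *sat2b* at 16.8 against 13.7 CPM. The intervals of their folds, 1.37 (0.955 to 1.99) and 1.22 (0.906 to 1.66), held 1, as did that of *sat1a.1*. Markers of hatching gland and notochord and of muscle were higher in sum in the same library, as given above. Their part in the *smox* value was not tested.

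Spermidine also donates the group that makes hypusine in eIF5A, a translation factor. Its genes were abundant and were not past 2-fold in either direction. *eif5a* was at 757 against 976 CPM, 1.29-fold lower (1.24 to 1.34). *eif5a2*, with 14165 and 14230 counts, was at 2222 against 2473 CPM, and its log2 ratio of -0.15 became 0.04 with library totals. Both modifying enzymes were somewhat higher, *dhps* (deoxyhypusine synthase) at 154 against 133 CPM and *dohh* (deoxyhypusine hydroxylase) at 102 against 82.4 CPM, with folds of 1.16 (1.06 to 1.28) and 1.23 (1.09 to 1.39).

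Of 11 transport genes found, 6 were measured, of which 5 had a higher and 1 a lower level on both scales. Of the 5, 1 (*slc7a1*) was measured through the mutant library alone. Among the 5, the folds of *slc7a3b*, 1.07 (0.921 to 1.24), and *slc18b1*, 1.24 (0.955 to 1.62), had intervals that held 1. *slc7a1*, a carrier of arginine, lysine and ornithine, was at 24.3 against 9.38 CPM, 2.59-fold higher (155 and 54 counts). *slc7a3a*, of the same carrier family, was at 59.9 against 80.1 CPM and was the lower one, and *slc3a2a*, which encodes the heavy chain of amino acid exchangers, was at 37.8 against 29.9 CPM. Below the minimum, *atp13a2* was at 5.96 against 9.21 CPM (38 and 53 counts) and *atp13a3* at 7.69 against 8.34 CPM (49 and 48 counts). The log2 ratio of *atp13a3*, -0.10, became 0.07 with library totals. Also below it were *SLC22A3* (8 and 1 counts), *slc7a2* (3 and 2) and *slc12a8* (0 and 2). Of the 6 measured genes of ornithine and arginine supply, 0 were past 2-fold. The 3 with a higher level were measured through the mutant library alone, and 1 of the 3 with a lower level (*slc25a15a*) through the sibling library alone, so no direction is read from their counts. *gatm*, whose enzyme releases ornithine from arginine, was at 16.0 against 9.73 CPM, *slc25a15a*, a mitochondrial ornithine carrier gene, at 6.59 against 10.9 CPM, and *asl*, argininosuccinate lyase, at 10.4 against 6.78 CPM.

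Of the 13 genes of the methionine cycle and salvage pathway, which make S-adenosylmethionine and recycle the methylthioadenosine left by *srm* and *sms*, all were measured. With TMM 5 were higher and 8 lower, with a median log2 ratio of -0.04, and with library totals 10 were higher and 3 lower, with a median of 0.15, so the balance of the list depended on the scaling. *ahcy*, adenosylhomocysteinase, which clears the product inhibitor of methyltransferases, was at 38.4 against 98.7 CPM (245 and 568 counts), 2.57-fold lower (2.21 to 2.99), and was the single gene of these lists past 2-fold in that direction. Of the salvage genes, *apip* was at 53.5 against 31.6 CPM, 1.69-fold higher (1.41 to 2.04), and *mri1* at 9.57 against 13.4 CPM, measured through the sibling library alone, 1.40-fold lower with an interval that held 1 (0.986 to 1.99).

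The *Myc* factors are listed because *odc1* is a textbook Myc target in mammals. Of 6 measured genes, 5 had a higher and 1 (*mycla*) a lower level on both scales, at a median log2 ratio of 0.60. The 5 include *max*, listed with the *Myc* genes, at 157 against 154 CPM. The interval of its fold, 1.02 (0.935 to 1.12), held 1. *myca* was measured through the mutant library alone. The abundant members *mycb* (388 against 252 CPM), *mych* (280 against 166 CPM) and *mycn* (86.5 against 57.7 CPM) were 1.54-fold (1.44 to 1.64), 1.69-fold (1.56 to 1.83) and 1.499-fold (1.31 to 1.72) higher. *myca* was at 13.7 against 5.21 CPM (87 and 30 counts), 2.62-fold higher (1.71 to 4.11), and *mycla* at 31.1 against 51.4 CPM. *odc1*, at 539 against 883 CPM, was on the other side. In the same library neural, muscle and hatching gland and notochord markers were higher in sum, and their part in the *Myc* values was not tested.

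**Figure D5:**
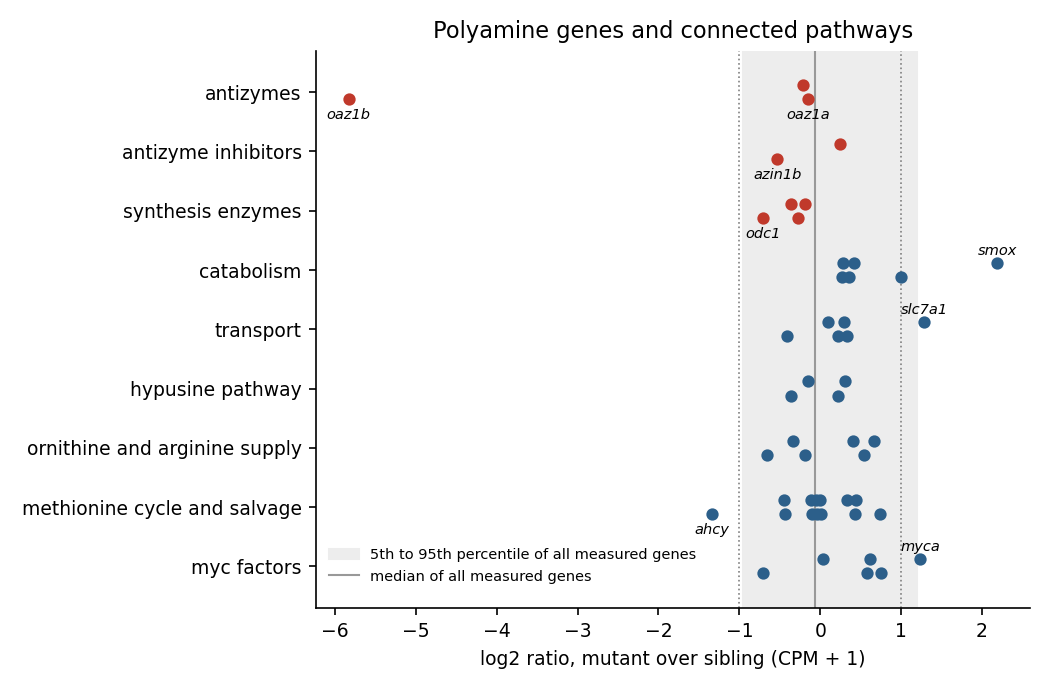
Log2 ratio of CPM + 1 (mutant over sibling) of each measured polyamine gene (red) and of each measured gene of the 6 connected lists (blue), 1 row per role. The grey band spans -0.96 to 1.19, the 5th to 95th percentile of all measured genes, and dotted lines mark 2-fold. *oaz1b* stands alone at the left, *smox*, *slc7a1* and *myca* lie beyond the band on the right and *ahcy* on the left.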

How the data were processed

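RNA was prepared with a SMART-Seq HT kit and sequenced on a BGISEQ-500, and reads were mapped to zebrafish build GRCz10, per the labels' protocols and the submitters' processing notes. Which aligner, counting tool and strand setting were used is not stated there. The authors deposited raw read counts and FPKM per gene, 1 column of each for 1 mutant and 1 sibling library, with gene positions, per the file headers.

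From the counts, TMM factors (edgeR 4.0.16 in R 4.3.3, 16401 genes with at least 10 summed counts, factors 1.07 and 0.9345) gave CPM, and ratios used a pseudocount of 1 CPM and a minimum of 10 CPM (63.7 counts in the mutant, 57.5 in the sibling library). edgeR gave scaling factors only. Fold and share intervals are exact (Clopper-Pearson, scipy 1.17.1), those of single FPKM exact Poisson intervals of the count, and those of sums and ratios of FPKM are normal approximations on the log scale from the counts. All are 95% and cover counting error. A count of 0 was bounded by 3 counts. The deposited FPKM carry no TMM factor. Ratio and interval functions were tested on simulated data.

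The genes, lists and marker lists were chosen with earlier results of these data known. Named in each list are up to 3 measured genes with the largest absolute log2 ratio and, in every case, *eif5a*, *dhps*, *dohh*, *sat1a.1*, *sat1a.2*, *sat1b*, *smox*, *myca* and *mycn*; the genes most like *oaz1b* and *odc1* are 5 each. *eif5a2*, *SAT1 (1 of many)*, *sat2b*, *slc7a3b*, *slc18b1*, *mycb*, *max*, *zer1*, *zgc:152948* and the markers named were chosen after their values were seen. *sat1a.2* and *azin2* were not matched to a row. Alternatives were 4 other scalings, FPKM, 2 pseudocounts, 3 minimums, 2 fold rules and 20 nearest genes in place of 10.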

Additional observations from a re-analysis of the deposited data

How the results depend on the processing

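No paired analysis was possible because each genotype has 1 library, and for the same reason no replicate could be left out. The log2 ratio of *oaz1b*, -5.83, was -5.43 with FPKM and -5.50 with a pseudocount of 5 CPM and stayed past 2-fold in all 7 alternatives. The ratio of summed antizyme, mutant over sibling, was 0.464 and became 0.531 with library totals alone, 0.508 with totals that leave out globins, ribosomal proteins and mitochondrial genes, 0.483 with upper quartile scaling and 0.684 with FPKM, which weights genes by length. The antizyme to *odc1* quotient of 0.978 was 0.760 with scaled counts. At 1.5-fold, 2 polyamine genes in place of 1 were lower, and of the connected genes 8 in place of 3 were higher and 3 in place of 1 lower. At 4-fold, 1 was higher and 0 lower. With FPKM, with a minimum of 50 CPM and with 10 CPM in both libraries, 0 of the connected genes were higher by 2-fold, since none of the 3 reached these levels. *oaz1a* was lower in 5 and higher in 2 of 7 alternatives, *azin1a* higher in all 7, and *oaz2a*, *odc1*, *amd1*, *srm*, *sms* and *azin1b* lower in all 7, with *amd1* reaching -0.0021. The median of the genes nearest *oaz1b* was -3.04 with 20 genes, which reach past *add1*, and -2.08 with no minimum. Depth limits *oaz2b*, *azin1a* and the mutant level of *oaz1b*.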
